A study of Mus musculus with 21 samples.

Results

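The 10 genes described here encode transcription factors that set the fate of blood cells, Gata1, Gata2, Klf1, Spi1, Cebpa, Runx1, Gfi1, Gfi1b, Ikzf1 and Tal1. They were taken by symbol from a table of read counts for 21000 gene symbols, all 10 were found in it, and all 10 had enough counts to be tested in each of the 10 comparisons below. The table holds RNA sequencing of hematopoietic stem cells (HSCs), the rare bone marrow cells from which all blood lineages descend, in 21 libraries of 3 per group. Wild-type mice, 10 weeks old at the start, received 5-fluorouracil (5-FU), a cytotoxic drug that kills dividing cells and so brings quiescent HSCs to divide. The dose was 150 mg/kg into the peritoneum, and control mice received phosphate-buffered saline (PBS). HSCs were isolated at day 6 after 1 administration of PBS (PBS-1 d6) or 5-FU (5FU-1 d6), at day 6 after the third of 3 administrations given 21 days apart (PBS-3 d6 and 5FU-3 d6), and at day 21 after 1 or 3 administrations of 5-FU (5FU-1 d21 and 5FU-3 d21). A seventh group, called old, consisted of fresh HSCs from untreated mice aged 2 years. The 21 libraries include no PBS group at day 21. For this reason, the day 21 groups were compared with the day 6 PBS group of the same number of administrations. The PBS groups are therefore shared between comparisons, and so are the day 6 and day 21 groups given 5-FU.

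Each library of the PBS and 5-FU groups was made from 3000 to 3500 sorted HSCs. The libraries of a group came from independent experiments. Total counts ranged from 22184885 to 38649033 per library (median 26962256). The cells were checked against 12 genes of HSC identity, of which all 12 had at least 74 counts in every library, and their summed level was 2987 to 4765 CPM (normalized counts, scaled to a common library total). Of 10 listed genes that mark cells outside the gate or white cells in general, Cd8a had no count in any library and Cd3e had at most 1, whereas Ptprc, which encodes the CD45 protein of all white cells including HSCs, made up 365 CPM or more. For mice at day 6 after 5-FU the sorting gate was widened to cells with dim c-Kit and the antibody to Mac-1 was left out, so the treatment and the gate cannot be told apart in either day 6 comparison. Kit, Cd48, Flt3 and Itgam, named here after their values were seen, bear on this gate. Kit fell by 0.86 on the log2 scale in 5FU-1 d6 (SE 0.07, edgeR adjusted p = 0.00111) and by 0.44 in 5FU-3 d6 (SE 0.07, edgeR adjusted p = 0.00701). Cd48, which the sort selects against, rose in both day 6 groups given 5-FU, from a mean of 4.29 to 7.615 CPM after 1 dose (edgeR adjusted p = 0.0262) and from 3.04 to 11.5 CPM after 3 (edgeR adjusted p = 0.00374). Flt3, which the sort also selects against, fell in both, from a mean of 23.2 to 5.95 CPM after 1 dose (edgeR adjusted p = 0.0055) and from 26.4 to 11.9 CPM after 3 (edgeR adjusted p = 0.012). Itgam, which encodes Mac-1, fell by 1.03 on the log2 scale in 5FU-1 d6 (SE 0.26, edgeR adjusted p = 0.0306), and its mean was 12.2 CPM in PBS-3 d6 and 11.5 CPM in 5FU-3 d6 (edgeR adjusted p = 0.868). In bulk libraries, fewer cells that use a gene and less RNA of it per cell cannot be told apart. An ending whose meaning no source gives was added to the column names of the PBS-1 d6 and 5FU-1 d6 libraries and to no other.

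These factors bind DNA at enhancers and promoters, often of each other, and hold a lineage program in place while repressing its rivals. Gata2, Runx1 and Tal1 sit at enhancers shared by stem and progenitor cells. Gata1 replaces Gata2 on many of these sites as cells become erythroid or megakaryocytic, Klf1 then drives the globin and red cell genes, and Gfi1b is the repressor of the same branch. Spi1 (PU.1) and Cebpa direct the granulocyte and monocyte branch, Gfi1 is the Gfi1b paralog of granulocytes and lymphoid progenitors, and Ikzf1 (Ikaros) opens the lymphoid branch.

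Compared per kilobase of the longest annotated transcript, the 10 genes covered a wide range of levels in these HSCs. Gata2 was the highest, with a median of 148 CPM per kb over the 21 libraries, followed by Ikzf1 at 102, Gfi1b at 82.7, Spi1 at 81.4 and Runx1 at 59.1 CPM per kb. Tal1 stood lower at 16.1, Gfi1 at 10.4 and Gata1 at 8.47 CPM per kb. Klf1 at 2.11 and Cebpa at 0.988 CPM per kb were the lowest and rest on few reads, Klf1 on 7 to 183 counts per library and Cebpa on 1 to 280, where Gata1 had 96 to 704. The spread between replicates was wider for these low genes, with a median coefficient of variation over the 7 groups of 5.47% for Runx1 and 5.77% for Gata2, against 28.2% for Klf1 and 57.5% for Cebpa. Across the 7 groups, the highest group mean exceeded the lowest by 10.7 times for Klf1, 6.79 times for Cebpa, 4.77 times for Gfi1 and 3.16 times for Gata1, and by 1.33 to 1.97 times for the other 6 genes.

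**Figure D1:**
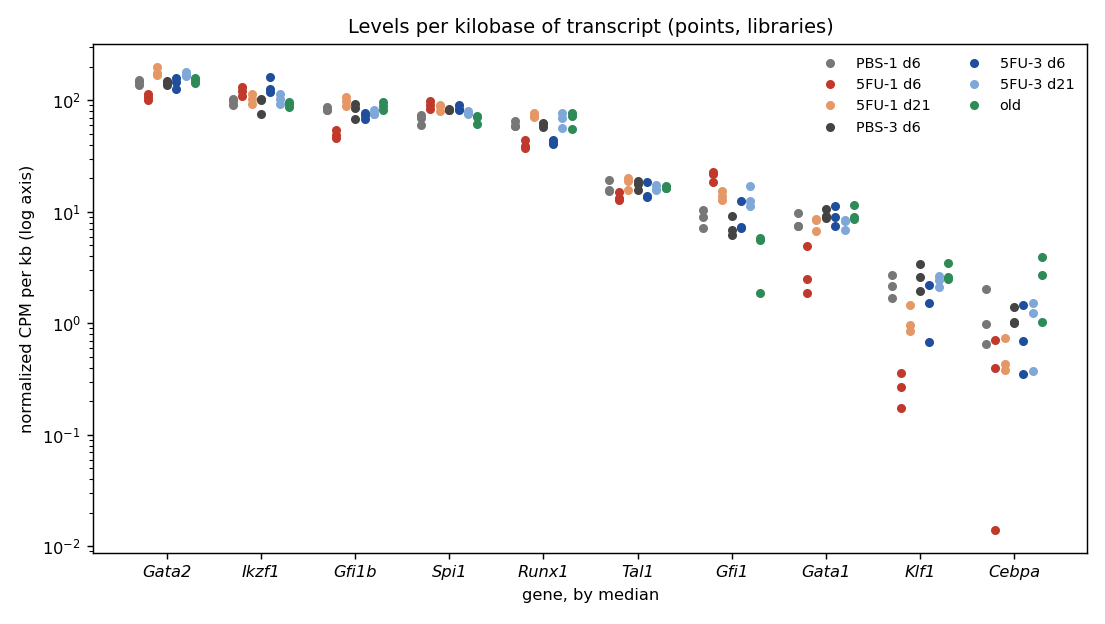
Normalized CPM per kilobase of the longest transcript on a log axis, for the 10 genes in order of their median, with 1 point per library coloured by group (n = 3 per group). Gata2, Ikzf1, Gfi1b, Spi1 and Runx1 lay highest, Klf1 and Cebpa lowest, and the single lowest point is Cebpa in replicate 2 of 5FU-1 d6, which rests on 1 count.

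The first comparison asked how HSCs differed from their controls at day 6 after a single dose. Of the 10 genes, 8 passed the threshold of an adjusted p under 0.05 in edgeR's quasi-likelihood test. Klf1, Gata1, Gfi1b, Runx1 and Gata2 fell, while Gfi1, Spi1 and Ikzf1 rose. Of the 12759 genes tested, 10.6% passed in the falling direction and 11.5% in the rising direction. The groups did not overlap for 9 of the 10 genes, against 43.8% of all genes. The median log2 fold change was -0.53 over the 10 and -0.00 over all genes tested. Scaling by library size alone, which left the same 8 genes past the threshold, changed the split of all calls from 1470 higher and 1357 lower to 1127 higher and 1623 lower.

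Of the genes that passed, the erythroid and megakaryocytic factors fell furthest. Klf1 (chromosome 8, 84901928 to 84905291, plus strand, GRCm38) measured 2.595, 3.28 and 4.15 CPM in the PBS-1 d6 libraries and 0.546, 0.407 and 0.268 CPM in the 5FU-1 d6 libraries. Every treated library was far under every control, although the treated values rest on 13, 11 and 7 counts. The fold change was -3.03 on the log2 scale (SE 0.47), or 8.20-fold lower, with an edgeR adjusted p of 0.00621. Gata1 (chromosome X, 7959260 to 7978071, minus strand) went from 14.2, 14.25 and 18.75 CPM to 4.75, 3.56 and 9.30 CPM. The third treated library was the highest of its group and still under the lowest control. Gata1 was 2.69-fold lower (log2 -1.43, SE 0.34, edgeR adjusted p = 0.0250). Gfi1b (chromosome 2, 28609450 to 28621982, minus strand) was tight within groups, with 151, 160 and 150 CPM after PBS and 89.9, 84.0 and 98.5 CPM after 5-FU. It was 1.70-fold lower (log2 -0.77, SE 0.08), and its edgeR adjusted p of 0.00183 was the smallest of the 10.

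The sequence before the transcription start was examined for the GATA word that Gata1 and Gata2 recognise, searched on either strand with the spelling AGATAA, the spelling AGATAG, the spelling TGATAA and the spelling TGATAG, in RefSeq promoter windows (GRCm38.p6) of 250 bases before to 50 after each start. Windows were at hand for 9 of the 10 genes, all but Spi1. These genes had 14 windows, 1 or 2 each. The word occurred in 29.8% of 32851 mouse windows and in 3 of these 14, those of the red cell factor Klf1 and its branch repressor Gfi1b and 1 of the 2 of Tal1, which joins GATA factors on DNA. These 3 stretches are shown because they are the ones that hold the word and their genes work with GATA factors, 5′ to 3′ on the gene's own strand, up to the base before the annotated gene, with the GATA word in capitals (in Klf1 the letters TTATCA, and in Tal1 the letters TTATCT, are the word read on the other strand). They are chr8:84901732-84901927 (plus), chr2:28621983-28622232 (minus) and chr4:115056176-115056425 (plus).
Klf1: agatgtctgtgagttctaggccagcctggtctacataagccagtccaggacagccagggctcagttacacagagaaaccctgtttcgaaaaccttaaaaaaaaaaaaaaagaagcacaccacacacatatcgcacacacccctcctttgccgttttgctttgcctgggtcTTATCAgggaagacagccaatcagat
Gfi1b: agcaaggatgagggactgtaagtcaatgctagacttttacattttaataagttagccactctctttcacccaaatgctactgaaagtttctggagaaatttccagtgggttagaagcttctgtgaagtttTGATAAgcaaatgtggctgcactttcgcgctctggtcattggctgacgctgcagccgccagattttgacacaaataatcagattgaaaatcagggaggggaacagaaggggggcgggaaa
Tal1: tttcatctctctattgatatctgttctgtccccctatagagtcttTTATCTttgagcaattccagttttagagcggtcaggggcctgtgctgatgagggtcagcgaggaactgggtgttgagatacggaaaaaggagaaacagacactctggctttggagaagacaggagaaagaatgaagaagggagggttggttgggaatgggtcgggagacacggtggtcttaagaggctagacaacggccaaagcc

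Counted from the RefSeq start, with negative positions before it, the word began at position -80 in Klf1, at -120 in Gfi1b and at -205 in Tal1. In the windows of the other 6 genes, Gata1, Gata2, Cebpa, Runx1, Gfi1 and Ikzf1, these letters were not found. A match is a description of the letters only, and no binding was measured.

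Of the factors shared by stem and progenitor cells, Runx1 and Gata2 fell, and by less than Klf1, Gata1 and Gfi1b. Runx1 (chromosome 16, 92601466 to 92826149, minus strand) measured 379.5, 346 and 345 CPM in PBS-1 d6, and 260, 217 and 229 CPM in 5FU-1 d6. No treated library reached a control, and Runx1 was 1.53-fold lower (log2 -0.61, SE 0.08, edgeR adjusted p = 0.00413). Gata2 (chromosome 6, 88193891 to 88207032, plus strand) fell from 548, 488 and 521 CPM to 387, 360 and 409 CPM. This was a 1.36-fold lower level (log2 -0.44, SE 0.07, edgeR adjusted p = 0.00777), again without overlap. Tal1 (chromosome 4, 115056426 to 115071755, plus strand), the basic helix-loop-helix partner of the GATA factors, had 65.0, 80.6 and 66.3 CPM after PBS and 54.2, 63.4 and 56.3 CPM after 5-FU. The highest treated library lay just under the lowest control, and Tal1 did not pass the test (log2 -0.29, SE 0.11, edgeR adjusted p = 0.0934).

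The rising genes belonged to the myeloid and lymphoid factors. Gfi1 (chromosome 5, 107716657 to 107726036, minus strand), which represses alternative fates in granulocyte and lymphoid progenitors, measured 29.6, 20.4 and 25.55 CPM after PBS and 64.7, 62.9 and 53.4 CPM after 5-FU. All treated libraries were well above all controls. Gfi1 was 2.38-fold higher (log2 1.25, SE 0.15, edgeR adjusted p = 0.00272). An antisense gene, A430072P03Rik, shares 3.17% of the Gfi1 exon bases on the other strand, and whether counting used the strand is not stated. Spi1 (chromosome 2, 91082390 to 91115756, plus strand) rose from 149, 122 and 141 CPM to 169, 201 and 185 CPM, 1.34-fold (log2 0.42, SE 0.10, edgeR adjusted p = 0.0263). Ikzf1 (chromosome 11, 11685003 to 11772926, plus strand) rose from 527, 513 and 467 CPM to 568, 679 and 621 CPM, 1.23-fold (log2 0.30, SE 0.08, edgeR adjusted p = 0.0410). Neither pair of groups overlapped. Cebpa (chromosome 7, 35119293 to 35121928, plus strand), a factor of granulocyte commitment, had 2.595, 5.30 and 1.71 CPM after PBS and 1.05, 0.0370 and 1.88 CPM after 5-FU. The groups overlapped, the second treated library rests on 1 count, and no change was detectable at this depth (log2 -1.70, SE 1.00, edgeR adjusted p = 0.255).

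Gata2, Runx1, Gfi1 and Gfi1b passed in all 13 alternative fits of this comparison, and Klf1 in all 12 in which it had a value. Gata1 passed in 9 of 13, Spi1 in 8 and Ikzf1 in 5, and the count of genes past the threshold was 5 without replicate 2 or replicate 3 of PBS-1 d6 or without replicate 2 of 5FU-1 d6.

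**Figure D2:**
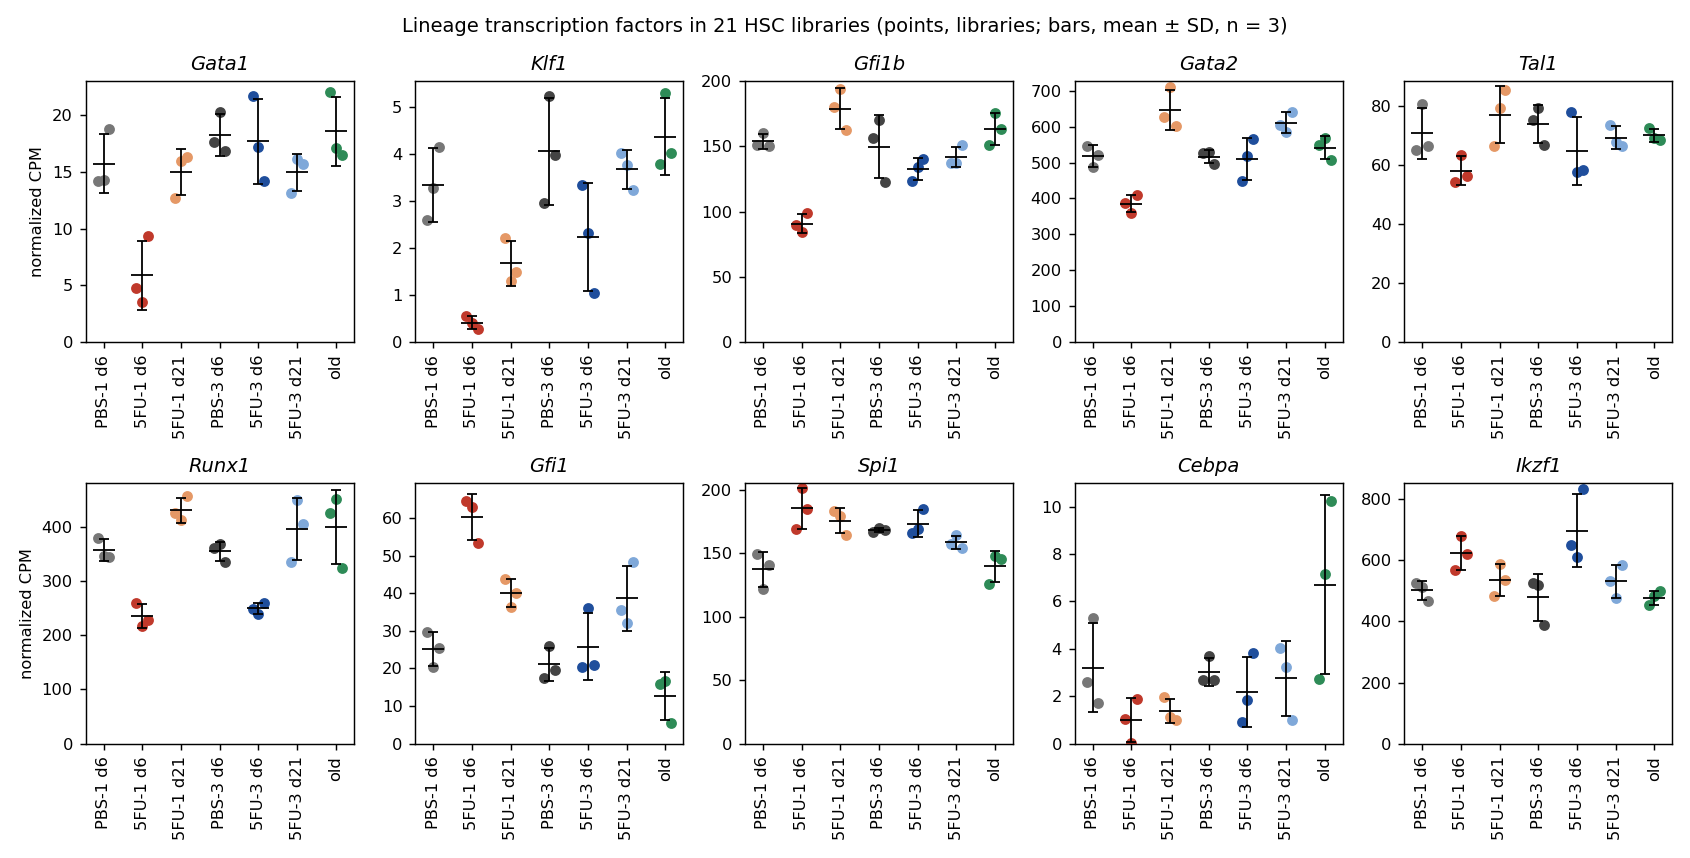
Normalized CPM of each of the 10 genes (vertical axes start at 0) in the 7 groups, with 1 point per library and the mean ± SD (n = 3) in black. In 5FU-1 d6, Gata1, Klf1, Gfi1b and Gata2 were lower than in every other group and Gfi1 was higher, while Runx1 was low in both day 6 groups given 5-FU.

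The same question was asked at day 6 after the third dose. Here 1 of the 10 genes passed the threshold, Runx1, which fell. The share of all 12729 genes that passed was 8.3% falling and 9.84% rising, and the groups did not overlap for 2 of the 10 genes, Runx1 and Ikzf1, against 40.3% of all genes. The median log2 fold change was -0.13 over the 10 and -0.01 over all genes. Scaling by library size alone changed the split of all calls from 1253 higher and 1057 lower to 807 higher and 1462 lower, with Runx1 still the gene of the 10 that passed.

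Runx1 measured 361, 368 and 335.5 CPM in PBS-3 d6 and 248.9, 239 and 260 CPM in 5FU-3 d6. The fall was 1.44-fold (log2 -0.53, SE 0.07, edgeR adjusted p = 0.00535), close in size to that after a single dose, and it passed in all 13 alternative fits. Ikzf1 had 527, 519 and 390 CPM after PBS and 650, 610 and 832 CPM after 5-FU. The groups did not overlap, but the spread was wide and the difference missed the threshold (log2 0.52, SE 0.16, edgeR adjusted p = 0.0608), passing in 2 of 13 alternative fits, DESeq2 and the fit of all 21 libraries.

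The erythroid factors, which had fallen furthest of the genes that passed after a single dose, did not pass after the third. Gata1 measured 17.6, 20.3 and 16.9 CPM in PBS-3 d6 and 21.7, 17.2 and 14.2 CPM in 5FU-3 d6, with overlapping groups (log2 -0.07, SE 0.17, edgeR adjusted p = 0.812). Gata2 was likewise spread across its controls, at 525.5, 529 and 495.5 CPM against 449, 519 and 565 CPM (log2 -0.04, SE 0.09, edgeR adjusted p = 0.814). For Gfi1b the values were 156, 170 and 123 CPM against 123, 134 and 140 CPM (log2 -0.20, SE 0.13, edgeR adjusted p = 0.325). For Klf1 the treated libraries had 3.35, 2.32 and 1.05 CPM against 2.96, 5.245 and 3.98 CPM in the controls (log2 -0.88, SE 0.48, edgeR adjusted p = 0.249). Of the myeloid factors, Gfi1 had 1 high treated library, with 20.4, 36.1 and 20.9 CPM against 17.6, 26.0 and 19.7 CPM in the controls (log2 0.27, SE 0.25, edgeR adjusted p = 0.507). The log2 fold changes of Spi1, Cebpa and Tal1 were 0.02 (SE 0.07), -0.48 (SE 0.54) and -0.21 (SE 0.14), and their groups overlapped.

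**Figure D3:**
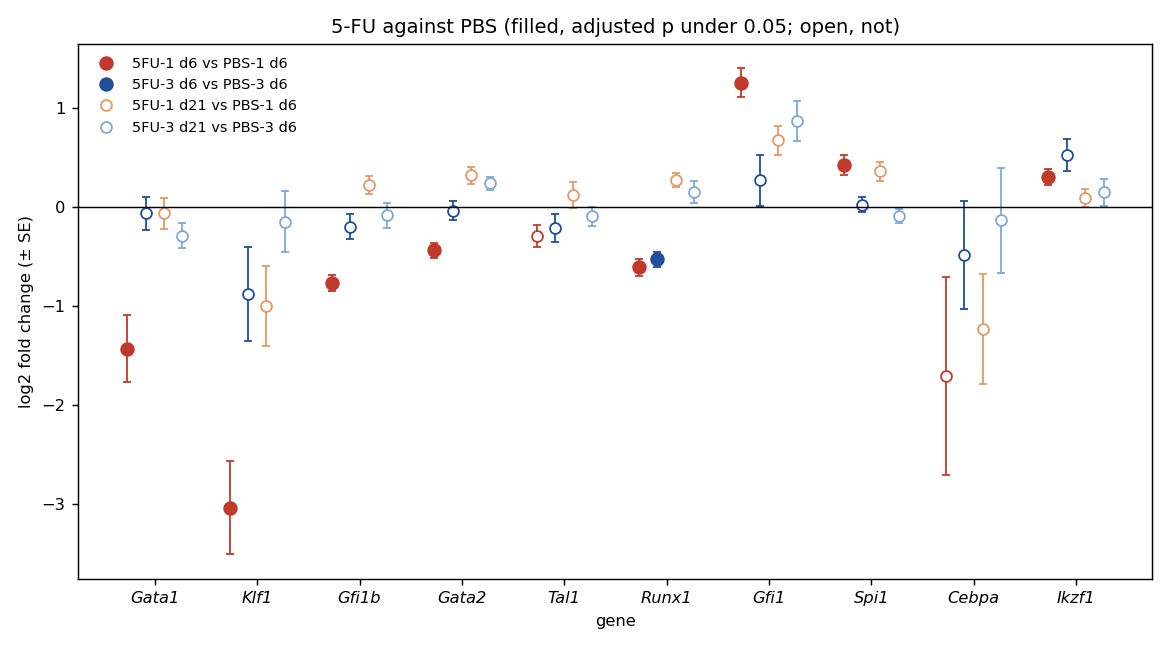
Log2 fold change of each gene against the PBS group of the same number of administrations, with its SE derived from the edgeR F statistic (3 libraries per group). Filled points passed an adjusted p of 0.05, which 8 genes did at day 6 after 1 dose, Runx1 alone after 3 doses, and none at day 21.

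Whether the day 6 response itself differed between 1 and 3 administrations was tested as an interaction over the 12 libraries of the 4 day 6 groups. None of the 10 genes passed (edgeR, 0 at an adjusted p under 0.05, and 6 at an unadjusted p under 0.05). Of all 13227 genes tested, 0.65% passed and 14.8% had an unadjusted p under 0.05 (45 called higher and 41 lower, or 39 higher and 72 lower with library size alone). DESeq2 called 5 of the 10, Gata1, Gata2, Klf1, Spi1 and Gfi1b. The response to 3 doses was less negative than that to 1 dose by 2.17 on the log2 scale for Klf1 (SE 0.65, edgeR adjusted p = 0.141), by 1.37 for Gata1 (SE 0.41, edgeR adjusted p = 0.137), by 0.58 for Gfi1b (SE 0.16, edgeR adjusted p = 0.106) and by 0.41 for Gata2 (SE 0.12, edgeR adjusted p = 0.133). It was less positive for Gfi1, with a difference of -0.97 (SE 0.32, edgeR adjusted p = 0.179), and for Spi1, with -0.39 (SE 0.12, edgeR adjusted p = 0.164). Without replicate 3 of 5FU-1 d6 Gata1 passed, and without replicate 2 of 5FU-3 d6 Gfi1 did, 1 gene in each case. For Runx1, which fell in both day 6 comparisons, the difference was 0.09 (SE 0.11, edgeR adjusted p = 0.746). Ikzf1 at 0.23 (SE 0.19), Tal1 at 0.09 (SE 0.19) and Cebpa at 1.23 (SE 1.23) also had adjusted p-values of 0.622 or more in edgeR. A difference between the first and the third response is therefore not shown for any of the 10 genes by the main test. The libraries of 1 and of 3 administrations also differ in the column-name ending and in age, which cannot be told apart from the number of doses.

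The controls of these 2 responses were compared with each other. Between PBS-3 d6 and PBS-1 d6, none of the 10 genes passed in edgeR (1 at an unadjusted p under 0.05), against 0.0156% of all genes tested called and 12.75% at an unadjusted p under 0.05. The log2 fold changes of the 10 lay between -0.25 and 0.30, and Spi1, the highest, was the 1 gene that DESeq2 called. These groups differ in the column-name ending and in age as well as in the number of injections, which cannot be told apart.

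The next comparisons followed the genes from day 6 to day 21. After a single dose, 7 of the 10 genes changed between 5FU-1 d6 and 5FU-1 d21, 6 rising and Gfi1 falling. Of all 12589 genes tested, 12.3% rose and 13.7% fell. The groups did not overlap for 7 of the 10 genes, against 46.2% of all genes. Each of the 5 genes that had fallen by day 6 was higher at day 21. The same 5FU-1 d6 libraries served in both comparisons. For genes picked by a low day 6 level, a rise was thus favoured in advance, as was the fall of Gfi1. Klf1, at 2.23, 1.31 and 1.49 CPM, was 4.10-fold above its day 6 level (log2 2.03, SE 0.58, edgeR adjusted p = 0.0396), and it kept its call in only 4 of 12 alternative fits. Gata1, at 12.7, 16.0 and 16.3 CPM, was 2.57-fold higher (log2 1.36, SE 0.34, edgeR adjusted p = 0.02545), in 9 of 13 alternative fits. Gfi1b reached 180, 194 and 163 CPM, 1.98-fold above day 6 (log2 0.99, SE 0.10, edgeR adjusted p = 0.00147).

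Runx1 at day 21 had 424, 412 and 456 CPM, a rise of 1.84-fold over day 6 (log2 0.88, SE 0.09, edgeR adjusted p = 0.00141). Gata2 had 628, 710 and 603 CPM, 1.69-fold over day 6 (log2 0.76, SE 0.09, edgeR adjusted p = 0.00207). Runx1, Gata2 and Gfi1b passed in all 13 alternative fits. Tal1 rose 1.34-fold to 66.3, 79.2 and 85.3 CPM (log2 0.42, SE 0.12, edgeR adjusted p = 0.0388), in 8 of 13 alternative fits. Gfi1 fell to 43.9, 36.3 and 40.0 CPM, 1.498-fold under day 6 (log2 -0.58, SE 0.11, edgeR adjusted p = 0.0114), and passed in 12 of 13, all but the fit of all 21 libraries. Spi1 (log2 -0.07, SE 0.09), Cebpa (0.47, SE 1.03) and Ikzf1 (-0.21, SE 0.10) did not pass. Without replicate 2 or 3 of 5FU-1 d21, or replicate 1 or 2 of 5FU-1 d6, 4 of the 10 genes passed. The libraries compared here differ in this column-name ending as well as in the day and the gate, which cannot be told apart.

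After the third dose, Runx1 was the gene of the 10 that changed between day 6 and day 21, rising to 334.5, 448 and 404 CPM (1.59-fold, log2 0.67, SE 0.11, edgeR adjusted p = 0.00874). Scaling by library size alone moved the median of all genes by 0.109 on the log2 scale here and changed the split of all calls from 1089 higher and 1361 lower to 1701 higher and 977 lower. Of all 12553 genes tested, 8.68% rose and 10.8% fell, and the groups did not overlap for 4 of the 10 genes against 41% of all genes. Gata2, at 606, 585 and 642 CPM, was above its day 6 level by 0.26 on the log2 scale (SE 0.10, edgeR adjusted p = 0.101), and Ikzf1, at 531, 475.5 and 586 CPM, was under it by 0.39 (SE 0.13, edgeR adjusted p = 0.0848). Neither passed the main test, though DESeq2 called both and 3 genes in all. Gfi1 moved the other way from the single-dose course, from 20.4, 36.1 and 20.9 CPM at day 6 to 35.5, 32.2 and 48.4 CPM at day 21, without passing (log2 0.59, SE 0.25, edgeR adjusted p = 0.146). Without replicate 2 of 5FU-3 d6, Gfi1 passed and the count was 2. The libraries compared here differ in the gate as well as in the day, which cannot be told apart. Runx1 had been called low in the same 5FU-3 d6 libraries, which favoured its rise in advance.

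Against PBS, no gene of the 10 passed at day 21. After a single dose, edgeR called 0 of the 10 at an adjusted p under 0.05 and 6 at an unadjusted p under 0.05, against 0.221% of all genes called and 13.3% at an unadjusted p under 0.05. DESeq2 called 4, Gata2, Spi1, Runx1 and Gfi1. Gfi1 was 1.59-fold above PBS-1 d6 (log2 0.67, SE 0.15, edgeR adjusted p = 0.122), Spi1 1.28-fold (log2 0.36, SE 0.10, edgeR adjusted p = 0.185), Gata2 1.25-fold (log2 0.32, SE 0.08, edgeR adjusted p = 0.170) and Runx1 1.21-fold (log2 0.27, SE 0.07, edgeR adjusted p = 0.184). The largest differences were downward, in the 2 genes with the fewest reads. Klf1 was 2.00-fold under PBS-1 d6 (log2 -0.999, SE 0.40, edgeR adjusted p = 0.346). Cebpa was 2.35-fold under it (log2 -1.23, SE 0.55, edgeR adjusted p = 0.392). These libraries also differ from PBS-1 d6 in this column-name ending, and with PBS-3 d6 as the control the log2 value of Spi1 was 0.07. Scaling by library size alone changed the split of all calls from 9 higher and 19 lower to 17 higher and 66 lower. After 3 doses edgeR called 0 of the 10, with 2 at an unadjusted p under 0.05, against 0.0475% of all genes called and 13.7% at an unadjusted p under 0.05. DESeq2 called Gata2 and Gfi1 (all calls were 5 higher and 1 lower, or 6 higher and 9 lower with library size alone). Gfi1 was 1.83-fold above PBS-3 d6 (log2 0.87, SE 0.20, edgeR adjusted p = 0.161) and Gata2 1.18-fold (log2 0.24, SE 0.07, edgeR adjusted p = 0.213). Between the 2 day 21 groups none of the 10 passed in edgeR (2 at an unadjusted p under 0.05), against 0.00802% of all genes called and 5.92% at an unadjusted p under 0.05. DESeq2 called Gfi1b.

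Age was examined as old against PBS-3 d6, the older of the PBS groups. In edgeR 0 of the 10 genes passed, with 2 at an unadjusted p under 0.05, against 0.996% of all 12847 genes called and 11.2% at an unadjusted p under 0.05, and DESeq2 also called 0. The 128 calls over all genes, 71 higher and 57 lower, became 20 without replicate 2 of old and 185 higher and 57 lower with PBS-1 d6 as the control. Gfi1 was lowest in the old HSCs, at 16.0, 16.6 and 5.37 CPM, all under the 17.6, 26.0 and 19.7 CPM of PBS-3 d6, but 1 old library was far under the other 2 (log2 -0.75, SE 0.38, edgeR adjusted p = 0.540). Cebpa was highest in old HSCs and scattered, at 2.71, 7.17 and 10.2 CPM (log2 1.14, SE 0.46, edgeR adjusted p = 0.407). Spi1, at 126, 148 and 146 CPM, was under PBS-3 d6 (log2 -0.28, SE 0.09, edgeR adjusted p = 0.286), but not under PBS-1 d6, where its log2 fold change was 0.03. Old mice also differed from the PBS groups in having had no injection, which cannot be told apart from age.

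Ordered by group mean, Gata1, Klf1, Gfi1b and Gata2 were lowest in 5FU-1 d6, and the next group up did not overlap with it. Runx1 was lowest in 5FU-1 d6 and 5FU-3 d6, which overlapped each other and no other group next in order. Gfi1 was highest in 5FU-1 d6, then in 5FU-1 d21 and 5FU-3 d21, which overlapped, and lowest in old HSCs, below PBS-3 d6 without overlap. For Ikzf1, Tal1 and Cebpa every neighbour in the order overlapped with the next. The order of Spi1 had a step between old and 5FU-3 d21 and another between 5FU-3 d21 and PBS-3 d6.

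The balance between rival or successive factors was then examined inside each library, as the ratio of counts per kilobase of 6 gene pairs in 5 comparisons. Such a ratio needs no scaling between libraries. Of the 30 two-sided exact permutation tests, 12 reached p = 0.1, the smallest that 3 libraries against 3 allow, and the smallest Benjamini-Hochberg adjusted value over the 30 was 0.25, so no ratio could pass. The ratios are therefore given as sizes. Gfi1 to Gfi1b, the paralog pair, had a geometric mean of 0.103 in PBS-1 d6 (0.0812 to 0.125) and 0.423 in 5FU-1 d6 (0.346 to 0.477), a shift of 4.09 times. Leaving out any 1 library kept the log2 shift of 2.03 between 1.86 and 2.18. In 5FU-3 d6 the mean was 0.120 against 0.0893 in PBS-3 d6, 1.34 times (exact permutation p = 0.3, adjusted p = 0.409). At day 21 the ratio was 1.38 times PBS after 1 dose and 1.92 times PBS after 3, and in old HSCs it was 2.03 times lower than in PBS-3 d6.

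Gata1 to Spi1, the classical pair of opposed erythroid and myeloid factors, had a geometric mean of 0.122 in PBS-1 d6 (0.102 to 0.142) and 0.0314 in 5FU-1 d6 (0.0190 to 0.0538), 3.89 times lower. After the third dose the means were 0.116 and 0.108, 1.07 times lower (exact permutation p = 0.8, adjusted p = 0.828). Gata1 to Gata2, the pair that exchange places during erythroid commitment, fell 2.14 times after 1 dose, from 0.0565 to 0.0264, and was 1.03 times lower after 3 doses. At day 21 the Gata1 to Gata2 ratio was 1.30 times under PBS after 1 dose and 1.44 times under PBS after 3. Klf1 to Gata1 was lower by 2.79 times in 5FU-1 d6 and by 1.87 times in 5FU-3 d6, and the first value rests in part on 1 library (a log2 difference of -0.83 in place of -1.48 without replicate 3 of 5FU-1 d6). Cebpa to Spi1 was 8.08 times lower in 5FU-1 d6, a value that rests on a library with 1 Cebpa count (a log2 difference of -1.39 in place of -3.01 without it), and 1.65 times lower in 5FU-3 d6. Tal1 to Runx1 was 1.25 times higher after 1 dose and 1.24 times higher after 3. Across all groups Gata1 transcripts stayed far under those of Gata2, the Gata1 to Gata2 ratio of single libraries ranging from 0.0186 to 0.0906.

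**Figure D4:**
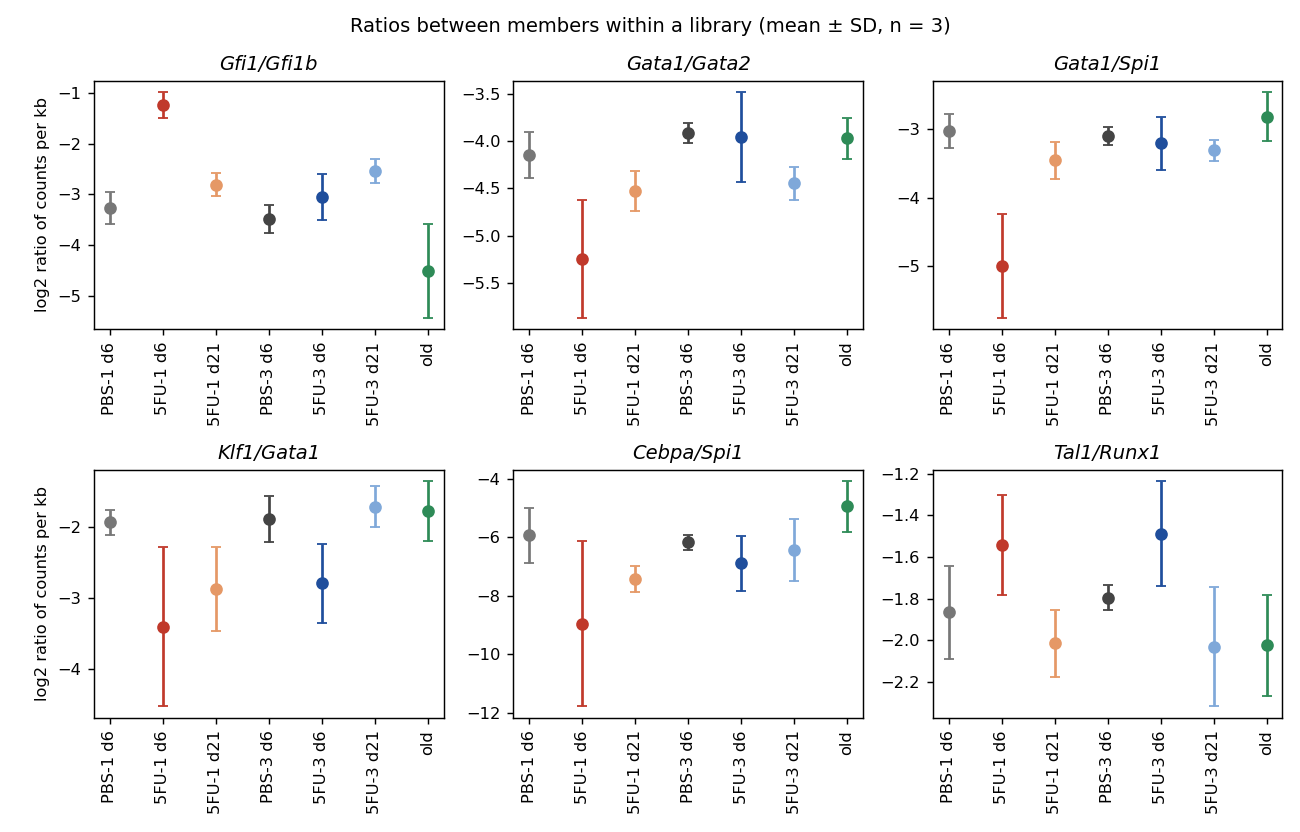
Log2 ratio of counts per kilobase between 2 genes in the same library, for 6 pairs in 7 groups, as mean ± SD (n = 3). Gfi1 to Gfi1b was highest, and Gata1 to Spi1 and Gata1 to Gata2 lowest, in 5FU-1 d6, and the wide bar of Cebpa to Spi1 in that group reflects a library with 1 Cebpa count.

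The partner proteins and cofactors of these factors were taken as a list of 18 genes, all of which were tested. After a single dose 4 fell and 1 rose, beside the 10.6% of all genes that fell and 11.5% that rose, with a median log2 fold change of -0.16 against -0.00 over all genes. Zfpm1 (Fog1), the cofactor through which Gata1 works, fell by 0.56 on the log2 scale (SE 0.14, edgeR adjusted p = 0.0297). Myb, which keeps progenitors dividing, fell by 0.48 (SE 0.06, edgeR adjusted p = 0.00366). Cbfa2t3 (Eto2), the corepressor of the Tal1 complex, fell by 0.40 (SE 0.09, edgeR adjusted p = 0.0189), and Lmo2, the bridging protein of that complex, by 0.20 (SE 0.05, edgeR adjusted p = 0.0254). Kdm1a (Lsd1), the demethylase that Gfi1 and Gfi1b recruit, rose by 0.21 (SE 0.06, edgeR adjusted p = 0.0484).

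After the third dose 3 of the 18 fell and 2 rose, beside 8.3% and 9.84% of all genes (median -0.03 against -0.01 over all genes). Cbfa2t3 fell by 0.34 on the log2 scale (SE 0.07, edgeR adjusted p = 0.0200), Ldb1, the dimerizing partner of Lmo2, by 0.33 (SE 0.08, edgeR adjusted p = 0.0275) and Lmo2 by 0.24 (SE 0.06, edgeR adjusted p = 0.0315). Cbfb, the obligate partner of Runx1, rose by 0.56 (SE 0.10, edgeR adjusted p = 0.0144) from a mean of 456 to 681 CPM, while Runx1 itself fell. Tcf3, which encodes the E proteins that pair with Tal1, rose by 0.41 (SE 0.08, edgeR adjusted p = 0.0183). No gene of the list passed the interaction test, in edgeR, nor in either day 21 group against PBS, nor in old HSCs. Between day 6 and day 21, where 12.3% of all genes rose and 13.7% fell after 1 dose, 6 of the 18 rose and none fell, namely Myb (0.68), Zfpm1 (0.64), Cbfa2t3 (0.63), Etv6 (0.53), Ldb1 (0.41) and Lmo2 (0.34 on the log2 scale). After 3 doses, where 8.68% of all genes rose and 10.8% fell, Cbfa2t3 (0.64), Myb (0.33), Ldb1 (0.31) and Fli1 (0.28) rose, and Cbfb (-0.35) and Tcf3 (-0.33 on the log2 scale) fell.

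For each of the 10, the 3 genes with the most similar course over the 21 libraries were found by Pearson's r of log2(CPM + 1) among 9267 genes with a mean of at least 10 CPM. These are descriptions over libraries that share groups. Gata1 ran with Gp5 (r = 0.899), Aqp1 (0.890) and Gp1bb (0.885), and Klf1 with Itgb3 (0.886), Khk (0.886) and Gp1bb (0.869). Gfi1b ran with Pdcd4 (r = 0.890), Tfr2 (0.888) and Bin1 (0.888), Gata2 with Arhgef2 (0.918), Pip5k1c (0.917) and Eef2k (0.906), and Tal1 with Pctp (0.856), Zfp959 (0.812) and Trim5 (0.794). Runx1 had the highest values, with Rnf167 (r = 0.933), Fmo5 (0.929) and Znrf1 (0.928). Gfi1 ran with Ablim1 (r = 0.884), Mamdc2 (0.834) and Capn2 (0.825), Spi1 with Nrros (0.856), Arhgdib (0.811) and Mpdu1 (0.808), Ikzf1 with Caprin1 (0.920), Cul1 (0.912) and Eif4g1 (0.911), and Cebpa with Rhobtb1 (0.793), Pgap4 (0.773) and Tnfaip2 (0.724). Gp5, Gp1bb and Itgb3, nearest to Gata1 and Klf1, encode platelet surface glycoproteins, and Aqp1 encodes the water channel of red cells.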

How the data were processed

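RNA from sorted mouse HSCs was converted to cDNA with the SMART-Seq v4 kit, made into libraries with Nextera XT and sequenced as single 75-base reads. According to the study's methods and the submitters' processing notes, reads were mapped to mm10 with TopHat 2.0.13 and quantified with Cuffdiff of Cufflinks 2.2.1. The deposited table holds whole-number counts per gene symbol from the authors. How these counts were made, and whether strand was used, is not given in the sources used here. Total counts were 22184885 to 38649033 per library. Reads carried no molecular identifiers, so counting precision covers counting error only.

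From these counts, genes were filtered (filterByExpr), scaled by TMM and compared pairwise by quasi-likelihood in edgeR 4.0.16 (R 4.3.3), with Benjamini-Hochberg adjustment over all genes kept and a threshold of 0.05. The interaction used the 12 day 6 libraries. The SE of a log2 fold change was derived as its absolute value divided by the square root of the quasi-likelihood F statistic. CPM were TMM-normalized over 21 libraries, and levels per kb used the longest GENCODE transcript on GRCm38 (20499 symbols matched, 97.61%). Ratios used log2((count + 0.5) per kb) and two-sided exact permutation tests. Alternatives were other scalings and filters, DESeq2 1.42.0, a replicate block, 1 fit of all libraries, other controls and leaving out each library. The tests were also run on simulated data in which 200 of 12759 genes changed 4-fold in the comparison of 5FU-1 d6 with PBS-1 d6: edgeR recovered 96.5% with 4.46% false calls, and DESeq2 recovered 99.0% with 18.9% false calls. For the interaction (13227 genes) false calls were 6.03% with edgeR and 25.5% with DESeq2. The changed genes were drawn only from genes above a floor of mean CPM, which Klf1 and Cebpa did not reach. Most changes of the genes described here were smaller than 4-fold, so these shares do not tell how often such changes would be found.

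The 10 genes, the gene lists and the tests were chosen with earlier results of these data known. Besides the 10, the text names the 3 genes most alike to each and the listed partners that passed the threshold. Kit, Cd48, Flt3, Itgam, Cd8a, Cd3e, Ptprc and the globin genes were named after their values were seen. Other lists are given by counts, medians and summed levels. Promoter sequences are from RefSeq (GRCm38.p6). P-values measure the spread between the 3 libraries of a group.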

Additional observations from a re-analysis of the deposited data

How the results depend on the processing

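The number of the 10 genes past the threshold ranged from 5 to 7 when 1 library was left out of the comparison of 5FU-1 d6 with PBS-1 d6, from 4 to 6 between 5FU-1 d21 and 5FU-1 d6, from 1 to 2 between 5FU-3 d21 and 5FU-3 d6, and from 0 to 1 in the interaction. DESeq2 called 2 in 5FU-3 d6, 4 and 2 at day 21 against PBS after 1 and 3 doses, 3 between day 21 and day 6 after 3 doses, 1 between the day 21 groups, 1 between the PBS groups and 5 in the interaction. The fit of all 21 libraries called 2 in 5FU-3 d6, 1 in 5FU-1 d21 against PBS and 3 between day 21 and day 6 after 3 doses, where library size alone gave 2. The cause was not tested. In 5FU-3 d6 directions turned for genes near 0. Leaving out 1 library gave log2 values of -0.235 to 0.072 for Gata1 (0.018 without replicate 2 of PBS-3 d6), -0.114 to 0.051 for Gata2, -0.025 to 0.058 for Spi1 (-0.078 with library size alone) and -0.047 to 0.448 for Gfi1. The log2 differences of the ratios were -0.286 to 0.184 for Gata1 to Gata2 and -0.292 to 0.092 for Gata1 to Spi1. Between 5FU-1 d21 and 5FU-1 d6, Spi1 ranged from -0.132 to 0.004 and Cebpa from -0.085 to 1.336. Tal1 in the interaction ranged from -0.078 to 0.173, and Spi1 in old HSCs was 0.027 against PBS-1 d6. None of these values passed the threshold. Klf1 and Cebpa had no value under the 10-count filter where a library fell below it.

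Over all genes, DESeq2 called 725 against 28 by edgeR in 5FU-1 d21, 592 against 6 in 5FU-3 d21, 161 against 1 between the day 21 groups, 569 against 128 in old HSCs, 547 against 2 between the PBS groups and 715 against 86 in the interaction. The fit of all libraries called 257, 185, 16 and 19 in 5FU-1 d21, in 5FU-3 d21, between the day 21 groups and between the PBS groups. Library size alone called 83 in 5FU-1 d21 and 15 in 5FU-3 d21. Leaving out 1 library gave 1563 to 1947 calls in 5FU-1 d6, 1231 to 1582 in 5FU-3 d6, 1 to 32 in 5FU-1 d21, 1 to 4 in 5FU-3 d21, 20 to 76 in old HSCs and 38 to 170 in the interaction. With PBS-1 d6 as control, old HSCs had 242.

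The replicate numbers did not pair the samples, since same-numbered libraries of different groups had deviations correlated at only -0.05 to 0.06 over 27 pairs. With the replicate block, 6 of the 10 genes passed in 5FU-1 d6, 1 in 5FU-3 d6, 6 between 5FU-1 d21 and 5FU-1 d6, 2 between 5FU-3 d21 and 5FU-3 d6, and 0 in each of the other comparisons. Over all genes the block called 1509 against 2310 in 5FU-3 d6, 3 in 5FU-1 d21, 0 in 5FU-3 d21, 0 between the day 21 groups and between the PBS groups, 30 in old HSCs and 55 in the interaction.

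Depth limits Klf1 and Cebpa, whose values rest on as few as 7 counts and 1 count. A library with no count would allow up to 3.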

Other observations

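The genes that these factors are known to regulate were read as lists, described by counts and medians with no test of a list. Of all genes tested, 11.5% rose and 10.6% fell after 1 dose, 9.84% rose and 8.3% fell after 3, and 0.65% passed the interaction. Of 18 megakaryocyte genes tested after a single dose, 11 fell and 1 rose, with a median log2 fold change of -0.87 against -0.00 over all genes, and after the third dose 9 fell and 1 rose, with a median of -0.39. The summed level of the list was 4608 to 4697 CPM in PBS-1 d6 and 2989 to 3096 CPM in 5FU-1 d6, and 4403 to 4910 CPM in PBS-3 d6 and 2895 to 3131 CPM in 5FU-3 d6. Of 18 myeloid genes tested after a single dose, 8 fell and 2 rose (median -1.32), and of 17 after the third, 4 fell (median -0.36). The summed level of the myeloid list was low, at 215.1 to 296.7 CPM in PBS-1 d6 and 162.4 to 175.2 CPM in 5FU-1 d6. It was 253.3 to 313.5 CPM in PBS-3 d6 and 144.5 to 189.6 CPM in 5FU-3 d6. In the interaction 4 of 18 megakaryocyte genes were higher and 1 lower, and 0 of 19 myeloid genes passed.

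Erythroid genes were mixed. Of 15 tested after a single dose, 3 fell and 2 rose, and of 16 after the third, 3 fell and 5 rose. The risers after a single dose were the adult beta-globin genes Hbb-bs (log2 2.85) and Hbb-bt (log2 2.70), named after their values were seen, which rose while Klf1, the activator of beta-globin, was at its lowest level. After the third dose they rose by 1.51 and 1.44. The alpha-globin gene Hba-a1 had a mean of 1.68 CPM in PBS-1 d6 and 1.52 CPM in 5FU-1 d6 (edgeR adjusted p = 0.94), and 1.33 CPM in PBS-3 d6 and 0.244 CPM in 5FU-3 d6, where it had too few counts to be tested. Hba-a2, a near-identical copy, did not pass in either comparison. Among 22 other blood transcription factors, 17 were tested in each day 6 comparison, and 5 fell and 2 rose after 1 dose and 3 fell after 3. Of the lymphoid genes 3 fell in each, out of 11 and 10 tested. In the 12 genes of HSC identity, 3 rose and 2 fell after 1 dose, and 1 rose and 4 fell after 3.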
